A study of [Candida] boidinii with 12 samples.

Results

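The genes described here are those whose messenger RNA was raised at least 16-fold on methanol in wild-type Candida boidinii, relative to the median gene. They were chosen from the deposited read counts. Counts were divided by each library's total and given as CPM, the counts per 1000000, and group means plus 1 CPM were compared as W, the log2 ratio of methanol to glucose in wild type, minus the median W of the genes kept. Rows whose counts averaged 50 or more across the 12 libraries were kept, leaving out the introduced gene LDH. A gene was a member at W of 4 or more. This gave 55 members among 5034 kept genes, or 1.09% of them, out of 5712 rows in all. Of the 677 other rows that fell under the minimum count, 0 reached a W of 4. The same ratio in LA001-14, called L, took no part in the choice, and the LA001-14 libraries entered it through the mean count alone.

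C. boidinii is a yeast that can live on methanol. In methylotrophic yeasts, methanol is oxidised in peroxisomes by alcohol oxidase to formaldehyde and hydrogen peroxide. Formaldehyde is either fixed into sugar phosphates by dihydroxyacetone synthase or oxidised to carbon dioxide by formaldehyde and formate dehydrogenases. The genes of this pathway are known as a textbook case of strong induction by methanol and repression by glucose. The files give coding sequences by identifier and coding length without gene names, and no genome or name table was used here. None of the members is therefore assigned to a step of that pathway, and only a few identifiers are printed.

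RNA was sequenced from 4 groups of 3 libraries, each sampled after 6 h in medium holding a carbon source at 2% (w/v). The groups were LA001-14 on methanol (YPM medium), LA001-14 on glucose (YPD medium), wild type on methanol and wild type on glucose. The wild type is strain CICC#33029. LA001-14 was derived from that strain and carries a lactate dehydrogenase cassette (PENO1-BtL-LDH-TTEF2) and a kanamycin resistance cassette (PTDH3-KanR-TTEF2) each placed at random in its chromosomes. The wild type carries neither cassette, so the cassettes, their positions and any other change in LA001-14 cannot be told apart. By the usual recipe both media also hold yeast extract and peptone. The labels call the replicates biological without saying that the cultures were separate, so the p-values reflect no more than the variation among the libraries at hand.

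Total counts ranged from 8045977 to 14107813 per library. LDH had 16132 to 76402 reads in each LA001-14 library and at most 1 read in each wild-type library. The libraries of wild type on glucose did not agree equally well. Replicate 1 differed from the other two by a chi-square per degree of freedom of 25.03 and 32.3, against 5.59 between those and 4.03 to 13.3 in the other 3 groups. Without this library the rule chose 52 genes, of which 51 were among the 55. In the edgeR fit of all 12 libraries, 37 of the 52 were called higher and 5 lower on methanol in LA001-14 (adjusted p under 0.05). Of all 5466 genes in that fit, 34.7% were called higher and 29.7% lower.

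In wild type the members covered a wide range of responses, which the choice of genes fixes and which is given as a description. W ran from 4.02 to 15.72 with a median of 5.40. It was 8 or more for 7 members, from 6 up to 8 for 14 and from 4 up to 6 for 34. Per length, in FPKM (reads per 1000000 and per kilobase of coding sequence), the members stood between 12.5 and 39902 in wild type on methanol, with a median of 329. In wild type on glucose they stood between 0 and 264, with a median of 6.05. The median of the kept genes was 33.6 FPKM in wild type on methanol and 34.1 FPKM on glucose. The median member was therefore above the median gene on methanol and below it on glucose. Of the 10 most abundant transcripts per length in wild type on methanol, 6 were members. Of the members, 0 were among the 100 most abundant in wild type on glucose.

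The member with the largest W was CB2421.t1, with a coding length of 2121 bases and a W of 15.72. It stood at 162.7, 115.1 and 127.1 CPM in the 3 libraries of LA001-14 on methanol, after TMM scaling of library sizes, which applies to the CPM values given from here on. It had 1 read in each of the 3 libraries of LA001-14 on glucose. In wild type it stood at 96283 ± 2974 CPM on methanol and 0.713 ± 0.626 CPM on glucose (SD, n = 3 each). The methanol libraries were thus above the glucose libraries in each strain, and wild type on methanol was above every library of the other 3 groups. CB2421.t1 held 8.23% to 8.73% of all counts in the libraries of wild type on methanol and 0.0126% to 0.0167% in those of LA001-14 on methanol.

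CB5255.t1 (1992 bases), next by W with 12.32, was not called higher in LA001-14. Its LA001-14 levels were 5.93, 7.32 and 7.56 CPM on methanol and 6.11, 10.9 and 8.44 CPM on glucose. The ranges of the groups overlapped, and the log2 change of -0.33 (SE 0.26) was not called (edgeR adjusted p = 0.105), with adjusted p from 0.0109 to 0.697 over the alternatives. In wild type it stood at 21133 ± 1149 CPM on methanol and 3.03 ± 0.528 CPM on glucose (SD, n = 3 each). DESeq2 called it lower on methanol in LA001-14, with a log2 change of -0.38 and an adjusted p of 0.0289. It was called lower by edgeR as well with library totals in place of TMM (-0.40, adjusted p = 0.0468) and without LA001-14 on glucose replicate 1 (-0.51, adjusted p = 0.0109).

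**Figure D1:**
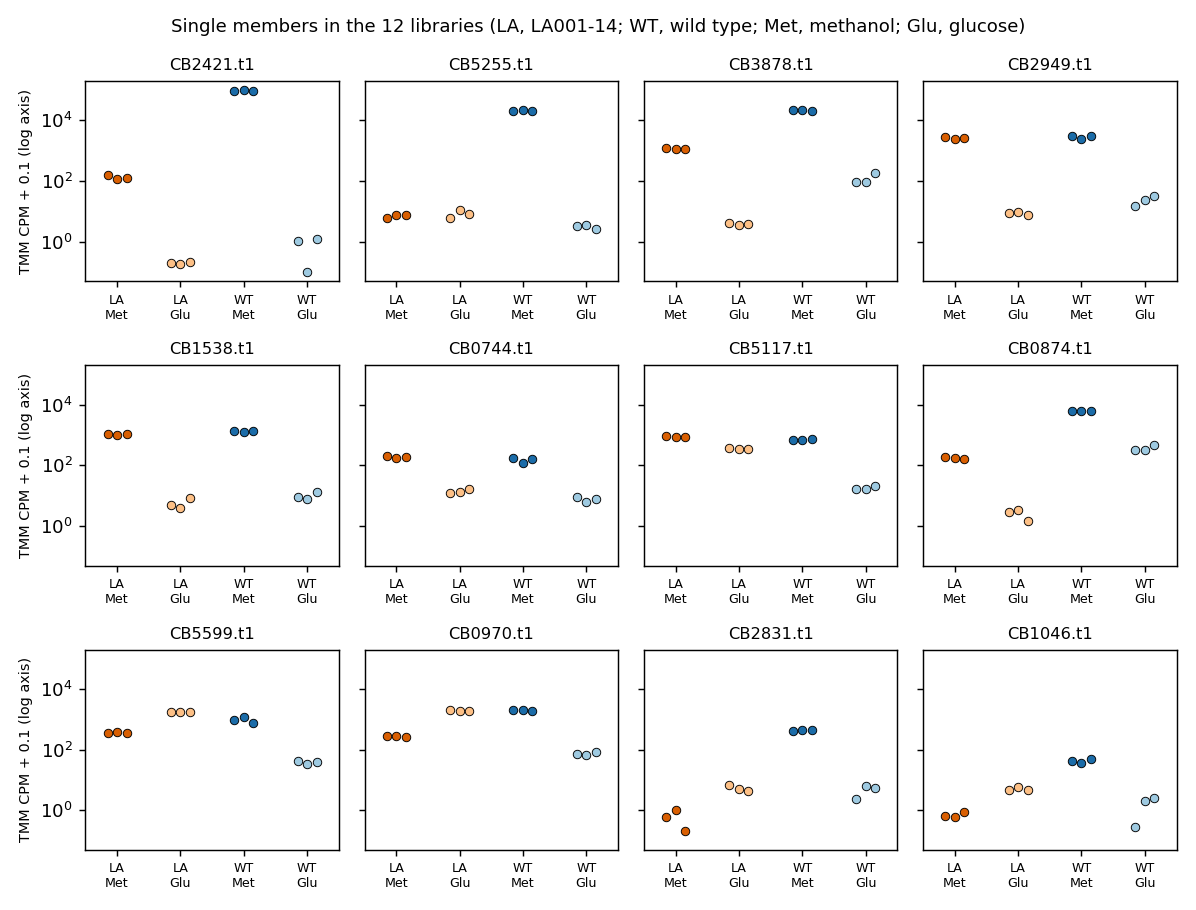
TMM-scaled CPM plus 0.1 (log axis) of 12 single members in each of the 12 libraries, 1 point per library, with LA001-14 (LA) left of wild type (WT) and methanol (Met) left of glucose (Glu). CB2421.t1 has 1 read in each LA001-14 glucose library, CB5255.t1 overlaps between the carbon sources in LA001-14, CB2949.t1 and CB1538.t1 are high on methanol in both strains, and CB5599.t1 and CB0970.t1 are lower on methanol than on glucose in LA001-14.

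In LA001-14, whose methanol response was not used to choose the genes, most members were also higher on methanol than on glucose. Of the 55 members, 39 (70.9%) were called higher, 6 (10.9%) were called lower and 10 (18.2%) were not called in edgeR's quasi-likelihood test at a Benjamini-Hochberg adjusted p of 0.05. Of all 5466 genes in the fit, 34.7% were called higher and 29.7% lower. The members thus held a larger share of higher calls and a smaller share of lower calls than the genes tested. A change of at least 2-fold was called higher for 35 members and lower for 5, against 6.93% and 11.3% of the genes tested. All 55 entered that fit, whose filter uses all 12 libraries, so members with few reads in LA001-14 passed through wild type on methanol. Without the wild-type methanol libraries, 13 members had a mean under 50 counts over the other 9 libraries, and of these 4 were called higher, 3 lower and 6 not called. Of the other 42, 35 were called higher, 3 lower and 4 not called. This split was chosen after seeing the data. In bulk libraries, fewer cells making a transcript and less of it per cell cannot be told apart.

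The sizes of these changes differed widely among the members. L had a median of 1.66 over the members and of 0.00 over the kept genes, to which it is centred, and ran from -2.88 to 8.02 over the members. The 39 higher members had fitted log2 changes of 0.68 to 10.29 with a median of 2.77, and the largest adjusted p among them was 0.00525. In 38 of these 39, every methanol library lay above every glucose library. Over all members this held for 39, with 6 the other way round and 10 overlapping, against 34.6% and 34.1% of the kept genes. Fits that left out each LA001-14 library in turn called 39 or 40 members higher and 5 to 7 lower.

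**Figure D2:**
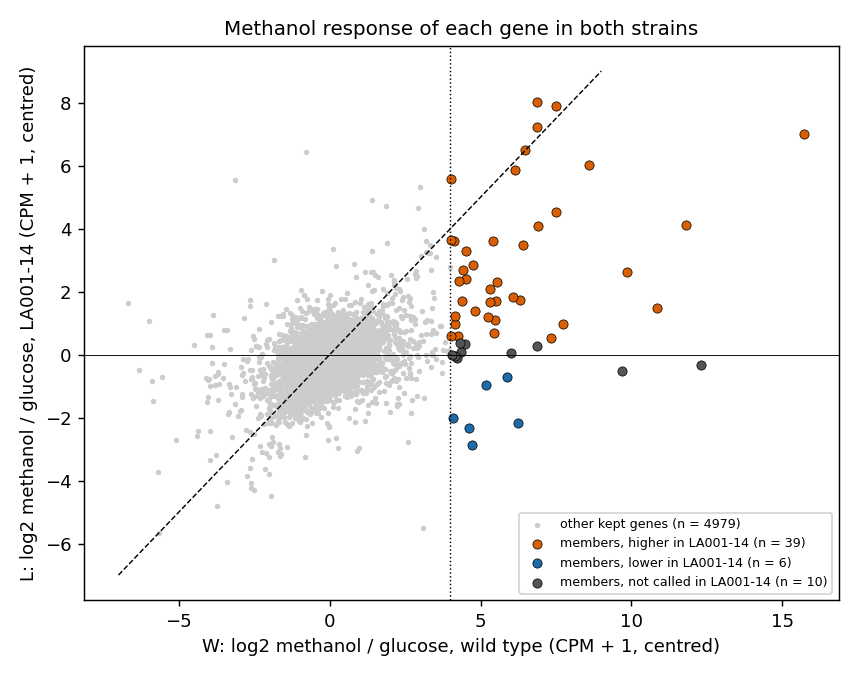
Methanol response of the kept genes in LA001-14 (L, vertical) against that in wild type (W, horizontal), both as centred log2 ratios of group mean CPM plus 1. The dotted line is W of 4, the dashed line marks equal responses, and the 55 members are coloured by their call in LA001-14: 39 higher, 6 lower and 10 not called, with 5 on or above the dashed line.

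L reached 4 or more in 11 members, which are 20% of the members and 64.7% of the 17 kept genes that reached it (0.338% of kept genes). These 11 stood at 16.1 to 2914 FPKM in LA001-14 on methanol and at 0.0338 to 18.1 FPKM in LA001-14 on glucose. Their W ran from 4.04 to 15.72. The largest L of any kept gene, 8.02, belonged to a member, CB2949.t1.

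The members called higher with the largest fitted change were CB4829.t1 and CB2421.t1, both with 1 to 3 reads over the glucose libraries of LA001-14, where a fitted change depends on the reads added. CB4829.t1 (954 bases) stood at 63.7, 50.1 and 56.1 CPM in LA001-14 on methanol and had 1 read in the 3 glucose libraries together. The ratio of summed reads, scaled by library size, was 1738 for CB4829.t1, with a 95% exact interval of 311 to 68667 (edgeR adjusted p = 1.30e-13). For CB2421.t1 the ratio was 1397, with an interval of 478 to 6776 (adjusted p = 4.97e-17). These intervals cover counting error only. The single glucose read of CB4829.t1 lies in replicate 2, and in wild type the gene stood at 125 ± 36.8 CPM on methanol and 0.723 ± 0.329 CPM on glucose (SD, n = 3 each).

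Per length, the most abundant members in LA001-14 on methanol were CB1538.t1 and CB2949.t1. In FPKM each stood close to its wild-type level. CB1538.t1 (387 bases) stood at 2914 ± 65.5 FPKM in LA001-14 on methanol, rank 66 among all rows, and at 16.7 ± 7.65 FPKM on glucose. In wild type it stood at 3000 ± 213 FPKM on methanol and 24.9 ± 6.38 FPKM on glucose (SD, n = 3 each). Its log2 change in LA001-14 was 7.55 (SE 0.34, edgeR adjusted p = 8.27e-15). CB2949.t1 (1644 bases) stood at 1723 ± 94.3 FPKM on methanol and 5.94 ± 0.647 FPKM on glucose in LA001-14, against 1525 ± 189 and 13.6 ± 4.15 FPKM in wild type. It rose by 8.23 on the log2 scale in LA001-14 (SE 0.12, edgeR adjusted p = 1.41e-12). On methanol the strains overlapped in CPM for CB2949.t1, at 2455 to 2916 CPM in LA001-14 and 2456 to 3069 CPM in wild type. They did not overlap for CB1538.t1, at 1001 to 1111 CPM in LA001-14 and 1217 to 1380 CPM in wild type.

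The other 10 members were not called in LA001-14. Of these, 6 were kept only through their counts in wild type on methanol, so a low level of these in LA001-14 is no result. Their fitted log2 changes ran from -0.996 to 0.73 and their adjusted p from 0.0713 to 0.810. The highest group mean of any of them was 6.31 FPKM in LA001-14 on methanol and 6.35 FPKM in LA001-14 on glucose. In 5 of the 10, no LA001-14 library reached 50 reads, as in 2 members that were called. These same 10 stood at 12.5 to 9324 FPKM in wild type on methanol. CB2420.t1, named here after its values were seen, is 1 of them (log2 change -0.996, edgeR adjusted p = 0.107). DESeq2 called it lower in LA001-14 on methanol (-1.05, adjusted p = 0.0399). So did edgeR with the replicate number as a block (-0.99, adjusted p = 0.0421) and without LA001-14 on methanol replicate 2 (-1.68, adjusted p = 0.0137). CB2420.t1 was kept only through its counts in wild type on methanol, so these calls and its low level in LA001-14 are no result. It had 21 reads over the libraries of LA001-14 on methanol and 38 on glucose, and 24879 reads in wild type on methanol against 0 on glucose. That is at least 8678-fold higher in wild type on methanol than on glucose, taking 3 reads over the glucose libraries as the limit. The members were chosen on this contrast, so the bound is a description, and it covers counting error only.

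The 6 members called lower on methanol in LA001-14 went against their direction in wild type, which the rule sets. Their replicates did not overlap in either strain, and in wild type this is close to set by the choice. These 6 are 10.9% of the members, while 34.1% of the kept genes did not overlap in the lower direction in LA001-14. Of these 6, 3 were kept only through their counts in wild type on methanol, CB2831.t1 and CB1046.t1 among them. A low level of these 3 in LA001-14 is no result. The fitted log2 changes of the 6 ran from -3.36 to -0.89. CB2831.t1 (714 bases) showed the largest, at 0.482, 0.890 and 0.111 CPM on methanol and 6.65, 5.08 and 4.22 CPM on glucose in LA001-14. Its log2 change was -3.36 (SE 0.56, edgeR adjusted p = 2.40e-06), and its methanol level rests on 7, 9 and 1 reads. In wild type CB2831.t1 stood at 427 ± 7.59 CPM on methanol and 4.59 ± 2.07 CPM on glucose (SD, n = 3 each). CB1046.t1 (669 bases) stood at 0.551, 0.494 and 0.778 CPM on methanol and 4.72, 5.597 and 4.54 CPM on glucose in LA001-14. Its log2 change was -3.04 (SE 0.17, edgeR adjusted p = 6.06e-06). With so few reads, that SE understates the error of the fitted change. In wild type CB1046.t1 stood at 42.4 ± 6.73 CPM on methanol and 1.53 ± 1.20 CPM on glucose. Without replicate 1 of wild type on glucose its W was 3.71, under the threshold, against 4.10 with it.

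**Figure D3:**
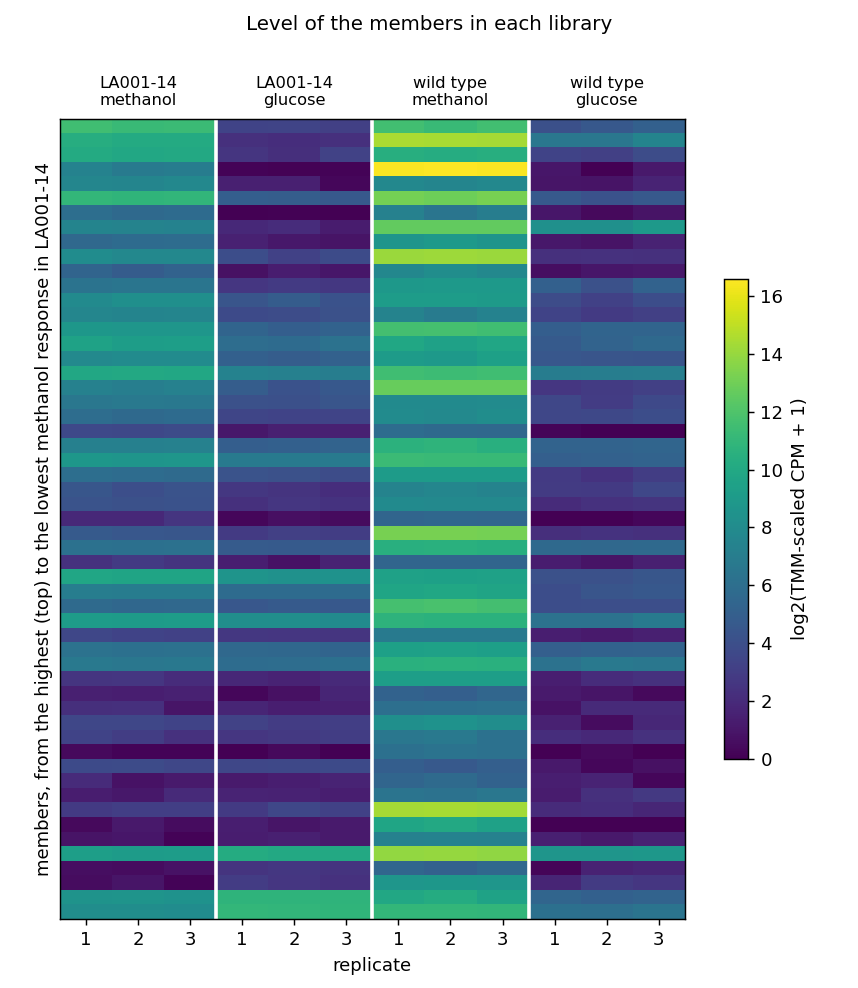
log2 of TMM-scaled CPM plus 1 for the 55 members (rows) in the 12 libraries (columns, 3 replicates per group), ordered by L from 8.02 at the top to -2.88 at the bottom. The columns of wild type on methanol are brighter than those of wild type on glucose in each row, as the rule requires, while in LA001-14 the contrast between the carbon sources fades down the page and turns round in the lowest rows.

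As a share of all counts, the members took less in LA001-14 than in wild type on methanol, and more on glucose. They held 1.60%, 1.56% and 1.58% of the counts in LA001-14 on methanol and 0.701%, 0.7004% and 0.711% in LA001-14 on glucose. The groups did not overlap and the means differed by 0.874 percentage points, with p = 0.1 in a two-sided exact permutation test, the smallest that 3 libraries against 3 allow. The 41 genes with W from 3 up to 4 held 1.29% on methanol and 0.315% on glucose in LA001-14, a difference of 0.972 points with the same p of 0.1. In wild type, whose libraries chose the genes, the members held 20.9%, 21.5% and 20.9% on methanol and 0.173%, 0.160% and 0.193% on glucose. CB2421.t1 alone made up 39.4% to 40.6% of the members' counts in wild type on methanol. In LA001-14 on methanol the largest part, 17.3% to 18.8% of the members' counts, belonged to CB2949.t1, and without it the difference between the carbon sources was 0.592 percentage points. In LA001-14 on glucose the largest parts were 30.1% to 31.0% for CB0970.t1 and 27.3% to 29.1% for CB5599.t1.

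**Figure D4:**
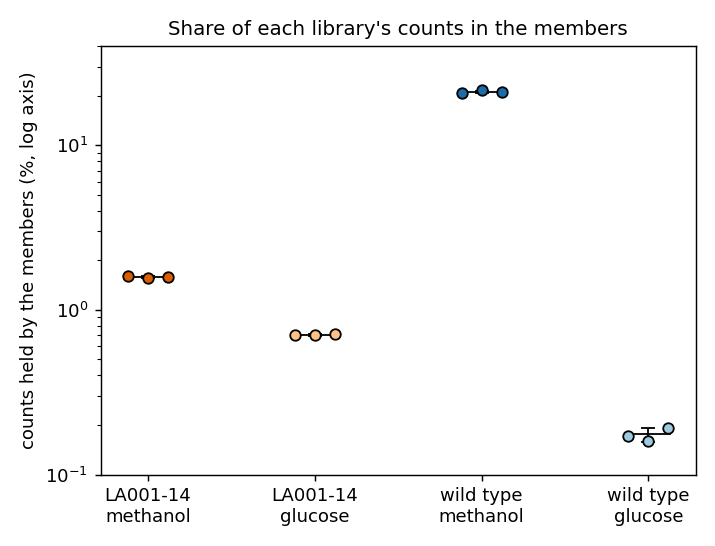
Share of each library's counts held by the 55 members (percent, log axis), with 1 point per library and the mean ± SD of 3 libraries as a bar. The members hold 1.58% on methanol and 0.704% on glucose in LA001-14, and 21.1% on methanol and 0.175% on glucose in wild type.

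On methanol most members were lower in LA001-14 than in wild type. These differences use the wild-type libraries that chose the genes, so they are given as ratios of group mean CPM plus 1, with library totals in place of TMM sizes, centred on the median kept gene, and no test is given. Before centring, that median was 0.27 on methanol and 0.22 on glucose on the log2 scale. On methanol, 48 of the 55 members were at least 2-fold lower in LA001-14 than in wild type, against 9.97% of the kept genes, and 20 were at least 16-fold lower, against 0.596%. The other 7 members were within 2-fold, against 81.6% of the kept genes, and 0 members were at least 2-fold higher, against 8.38%. Of the 41 genes with W from 3 up to 4, 30 were at least 2-fold lower and 0 at least 2-fold higher. The median over the members was -3.28 on the log2 scale. On glucose the median was 0.25, with 17 members at least 2-fold higher in LA001-14 and 4 at least 2-fold lower, against 6.38% and 7.67% of the kept genes. Without replicate 1 of wild type on glucose, a choice made after seeing the data, these counts were 16 and 5 and the median was 0.20.

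The widest gaps on methanol belonged to CB5255.t1, with a log2 ratio of LA001-14 to wild type of -11.38, and CB2421.t1, with -9.47. At the other end, CB0744.t1 and CB5117.t1 were slightly higher in LA001-14, with 0.32 and 0.28. CB0744.t1 (1053 bases) stood at 190 ± 9.71 CPM in LA001-14 on methanol and 152 ± 27.8 CPM in wild type on methanol, where the libraries lay between 121 and 173 CPM. In LA001-14 CB0744.t1 rose by 3.76 on the log2 scale over glucose (SE 0.13, edgeR adjusted p = 4.69e-16). CB5117.t1 (1278 bases) stood at 860 ± 41.9 CPM in LA001-14 on methanol and 710 ± 15.96 CPM in wild type on methanol (SD, n = 3 each).

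CB5117.t1 also differed between the strains on glucose. It stood at 358 ± 21.5 CPM in LA001-14 on glucose, against 17.7 ± 2.75 CPM in wild type on glucose. Its rise of 1.27 on the log2 scale in LA001-14 (SE 0.064, edgeR adjusted p = 1.48e-12) was from that higher glucose level, and its W was 5.24. The 7 members within 2-fold of wild type on methanol had L values from 1.18 to 8.02.

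CB5599.t1 and CB0970.t1 showed the highest glucose levels in LA001-14 relative to wild type, with log2 ratios of 5.51 and 4.71 (5.598 and 4.68 without replicate 1 of wild type on glucose). CB5599.t1 (1524 bases) stood at 372 ± 19.5 CPM on methanol and 1780 ± 27.0 CPM on glucose in LA001-14, against 968 ± 210 and 37.9 ± 4.58 CPM in wild type. Its log2 change in LA001-14 was -2.26 (SE 0.045, edgeR adjusted p = 1.37e-12). CB0970.t1 (1602 bases) stood at 276 ± 9.03 CPM on methanol and 1934 ± 73.8 CPM on glucose in LA001-14, against 1981 ± 58.6 and 73.1 ± 8.35 CPM in wild type. Its change was -2.81 (SE 0.042, adjusted p = 1.31e-18). In LA001-14 each of these genes was called lower on methanol, and the glucose level of CB0970.t1 in LA001-14 was near its methanol level in wild type.

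CB0874.t1 and CB3878.t1 were the reverse on glucose, with log2 ratios of LA001-14 to wild type of -6.79 and -4.70 (-6.90 and -4.88 without replicate 1 of wild type on glucose). CB0874.t1 (1488 bases) stood at 171 ± 10.3 CPM on methanol and 2.52 ± 1.00 CPM on glucose in LA001-14, against 6225 ± 55.3 and 378 ± 90.3 CPM in wild type. It rose by 6.05 on the log2 scale in LA001-14 (SE 0.35, edgeR adjusted p = 9.52e-15). CB3878.t1 (1128 bases) stood at 1189 ± 73.2 CPM on methanol and 3.80 ± 0.235 CPM on glucose in LA001-14, against 22188 ± 876 and 123 ± 49.4 CPM in wild type. It rose by 8.29 in LA001-14 (SE 0.071, adjusted p = 1.03e-11), and with 17287 ± 553 FPKM it was the second most abundant member per length in wild type on methanol. Both genes were lower in LA001-14 on each carbon source, and they are 2 of the 5 members whose L was at least as large as W. Without replicate 1 of wild type on glucose the W of CB0874.t1 was 3.92, under the threshold, against 4.04 with it.

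**Figure D5:**
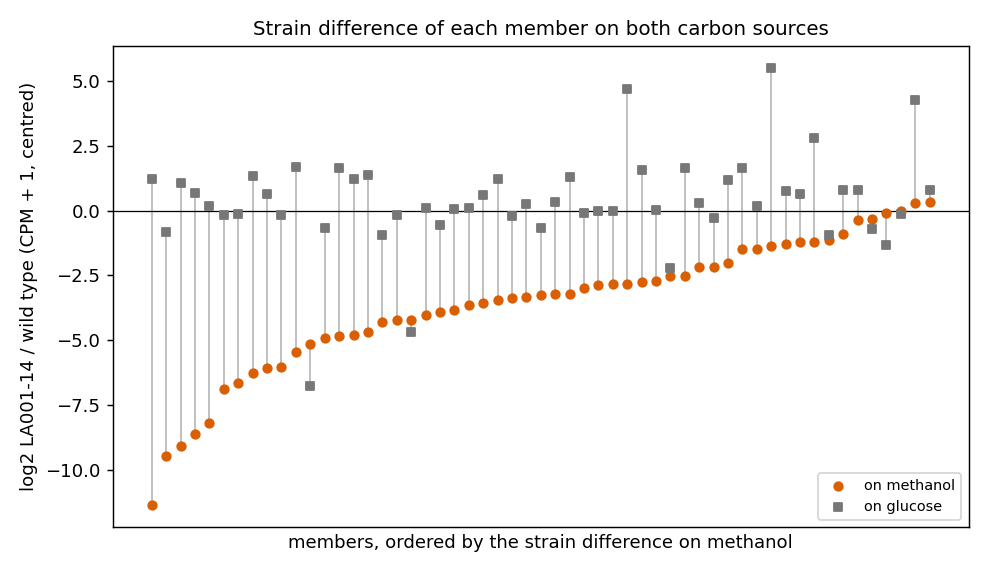
Centred log2 ratio of LA001-14 to wild type (group mean CPM plus 1) for each of the 55 members, on methanol (circles) and on glucose (squares), ordered by the value on methanol. On methanol 48 members lie at -1 or below, while on glucose the values scatter around a median of 0.25, from -6.79 to 5.51.

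The most abundant members of wild type on methanol had lower ranks in LA001-14. The 6 members among the 10 most abundant transcripts per length in wild type on methanol stood at 8834 to 39902 FPKM there. In LA001-14 on methanol these 6 stood at 3.73 to 1124 FPKM and ranked from 174 to 4940 among all rows. They were picked for their high level in wild type on methanol, so a lower rank in another group is close to set by the choice. Of the 6, 4 were called higher, 1 lower and 1 not called on methanol in LA001-14. Across the 55 members, levels in LA001-14 on methanol and wild type on methanol gave a Pearson's r of 0.62 and a Spearman's rho of 0.67 in log2 FPKM plus 1. Over the 5034 kept genes these were 0.90 and 0.90. On glucose the members' values were 0.71 and 0.80, against 0.93 and 0.92 over the kept genes. These are correlations across genes that share the same 12 libraries and their depth.

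L differed among members of like W. Across the 55 members, whose W the rule cuts off at 4, Pearson's r was 0.31 and Spearman's rho 0.28, and the libraries behind the 2 measures are separate. Over the kept genes, without that cut-off, these correlations were 0.46 and 0.40. The 7 members with W of 8 or more had L between -0.52 and 7.01, with a median of 2.61. The 14 with W from 6 up to 8 had L between -2.19 and 8.02, with a median of 3.78. The 34 with W from 4 up to 6 had L between -2.88 and 5.58, with a median of 1.14. Of these 34, 22 were called higher in LA001-14, 5 lower and 7 not called. With W from 6 up to 8 the calls were 12 higher, 1 lower and 1 not called. With W of 8 or more they were 5 higher, 0 lower and 2 not called. Of all genes tested, 34.7% were called higher and 29.7% lower.

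Coding length, which the rule did not use, was near that of other genes. The members' coding lengths ran from 387 to 5418 bases with a median of 1488, against a median of 1467 over the kept genes, and length and L correlated with r = 0.054 across the members. Over the members, replicates varied by a median coefficient of variation of 8.65% in LA001-14 on methanol and 13.0% in LA001-14 on glucose. Over the kept genes these were 7.28% and 8.76%. The members' figures were 5.92% in wild type on methanol and 26.1% in wild type on glucose, against 6.92% and 9.47% over the kept genes. In wild type on glucose the members' median level was 6.05 FPKM and replicate 1 stood apart. The part of either in the 26.1% was not tested.

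Of the members, 4 carried consecutive identifier numbers, in 2 pairs named here after their values were seen. CB2420.t1 and CB2421.t1 had W of 9.70 and 15.72, and L of -0.52 and 7.01. CB0743.t1 and CB0744.t1, each with a coding length of 1053 bases, had W of 4.51 and 4.12 and L of 3.28 and 3.59. Whether identifier numbers follow chromosome position is not given in the files. Whether the pair of equal length shares reads was not tested, so their counts are uncertain to that extent.

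At the threshold itself, the member just inside was CB1681.t1 (2622 bases) with W of 4.02, and the gene just outside was CB5698.t1 (2316 bases) with W just under the threshold, 4.00 when rounded. CB1681.t1 stood at 83.0 ± 4.41 CPM on methanol and 5.46 ± 0.452 CPM on glucose in LA001-14, against 487 ± 19.3 and 28.7 ± 10.7 CPM in wild type. CB5698.t1 stood at 551 ± 29.0 CPM on methanol and 75.5 ± 5.07 CPM on glucose in LA001-14, against 520 ± 29.6 and 31.3 ± 4.81 CPM in wild type. The 41 kept genes with W from 3 up to 4 had a median L of 0.67, against 1.66 for the members. Of these 41, 28 (68.3%) were called higher and 3 (7.32%) lower on methanol in LA001-14, shares near those of the members.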

How the data were processed

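The 12 files, 1 per library, list 5712 coding sequences with length, count and FPKM, 5711 of them with an identifier starting with CB and 1 named LDH. The counts were deposited as raw whole numbers per coding sequence, per the file headers. The FPKM values were made by the authors, per the file headers, and equal count over length and column total (largest deviation 2.4e-06 percent), with no adjustment for composition. The submitters' processing notes name Bowtie2 2.5.4. For the counter, its strand setting, the build and the gene models, the entry is: not given in the sources used here.

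Members were chosen as the opening states. Counts were fitted with edgeR 4.0.16 in R 4.3.3: filterByExpr (5466 rows), TMM factors of 0.874 to 1.15, 1 mean per group over 12 libraries, robust quasi-likelihood, contrast LA001-14 methanol minus glucose, Benjamini-Hochberg adjustment over all genes tested. Standard errors were taken from log2 CPM (prior count of 2) across replicates. They are not the error of the edgeR fitted change beside which they are printed. For genes with few reads in a group, such as CB1046.t1 and CB3878.t1, they can be smaller than the counting error. The fit was tested on simulated data. DESeq2 1.42.0 was an alternative; other values used pandas 2.3.3 and scipy 1.17.1. The members, lists, tests and alternatives were chosen with earlier results of these data known. Genes named are, among members, the 2 at each end of the comparisons reported (W, FPKM in either strain on methanol, change in LA001-14 among calls whose replicates did not overlap, strain ratios) and those next to the threshold, with exceptions marked. Replicate numbers were not taken to pair the libraries. Same-numbered LA001-14 libraries on methanol and glucose deviated together with r = 0.16, 0.094 and 0.0086. For unlike numbers r ran from -0.158 to 0.076, so a weak pairing is not excluded.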

Additional observations from a re-analysis of the deposited data

Results flagged for a closer look

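In 6 members the strains moved in opposite directions in every library: each LA001-14 methanol library lay below each LA001-14 glucose library, and each wild-type methanol library lay above each wild-type glucose library. Named among them are CB2831.t1, with a methanol response (L minus W) lower in LA001-14 by -8.44 on the log2 scale, CB0970.t1 with -7.61, CB5599.t1 with -6.95 and CB1046.t1 with -6.10. In LA001-14, 34.1% of the kept genes had every methanol library below every glucose library, a larger share than the 10.9% of the members. The wild-type direction is set by the rule, and the share of kept genes that meet both conditions was not counted. The difference between the strains was not tested, because the wild-type libraries that enter it chose the genes. Within LA001-14 each of the 4 named genes was called lower on methanol. The methanol levels of CB2831.t1 and CB1046.t1 in LA001-14 rest on 1 to 9 reads per library. Both genes were kept only through their counts in wild type on methanol, so their low level in LA001-14 is no result. CB1046.t1 is not a member without replicate 1 of wild type on glucose (W of 3.71).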

How the results depend on the processing

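The 39 higher and 6 lower calls in LA001-14 moved little. The calls under the other scalings (RLE, upper quartile, library totals), without the filter, under DESeq2 (39 higher, 8 lower) and with the replicate number as a block (39 higher, 7 lower) held all 45. The LA001-14 libraries alone gave 38 and 5 with 43 shared, and leaving out LA001-14 on glucose replicate 2 gave 44 calls, 44 shared. None of the shared calls changed sign. The number of members was 39 with 5 CPM added in the rule, 59 with 0.5 CPM, 56 and 46 with minimum means of 10 and 200 counts, 50 without centring, 56 with TMM sizes, and 52 to 56 without 1 wild-type library. The median L was 1.79 with 5 CPM added in the rule, 1.54 with 0.5 CPM, 1.22 with 5 CPM added in L alone, and 1.49 to 1.73 when 1 library was left out. The difference in the share of counts was 0.835 percentage points of summed FPKM, and 0.865 to 0.883 when 1 library was left out. It was 0.592 without CB2949.t1, the member with the most reads in LA001-14 on methanol. The causes were not tested. Over these fits 6 members changed call: 4 gained a call, among them CB5255.t1 and CB2420.t1 with the values given above, and 2 lost it. Of the 55 members, 7 had under 50 reads in every LA001-14 library.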

Other observations

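A further 6 kept genes had L of at least 4 in LA001-14 without being members. Their L ran from 4.67 to 6.42 and their W from -3.14 to 2.98, with 4 at W of 1 or more and 2 under 0. Per length they stood at 36.9 to 1784 FPKM in LA001-14 on methanol and at 7.31 to 1342 FPKM in wild type on methanol. They are given as values, with no test against the members.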
